A study of Mus musculus with 24 samples.

Results

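The comparison set 6 mice given MitoCDNB against 6 mice given vehicle, in the liver 1 h after the injection. The 12 libraries were chosen by their titles, out of 24 libraries in all, and every gene of the count table was used. All animals were C57BL/6 mice, and the sample was the medial liver lobe. The MitoCDNB group received 5 mg/kg of the compound, and the vehicle group received its carrier with 0.1% ethanol. The other 12 libraries came from the same 2 treatments at 4 h and serve here to show how long a change lasted and to estimate the spread. The sources used here give no age, sex or route of injection.

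MitoCDNB is chlorodinitrobenzene, an electrophile that glutathione S-transferases join to glutathione, linked to a lipophilic triphenylphosphonium cation that carries it into mitochondria along the membrane potential. It was made to deplete mitochondrial glutathione and to block the mitochondrial thioredoxin system, in which thioredoxin reductase 2 (Txnrd2) reduces thioredoxin 2 (Txn2), which in turn reduces peroxiredoxin 3 (Prdx3). In the liver, hepatocytes change transcription within minutes of a hormonal or stress signal through immediate early genes, which need no new protein, and many of these code for transcription factors or for inhibitors of the signal that induced them. Whether the loss of this mitochondrial defence reached the nucleus within 1 h is the question this time point addresses.

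Poly-A RNA was sequenced, and the libraries of 1 h held 26.0 M to 36.5 M counts (M, 1e6 counts). Values are counts per M (CPM) on library sizes scaled by TMM, a trimmed mean of log ratios, and adjusted p values come from edgeR's quasi-likelihood test with Benjamini-Hochberg adjustment over 13833 genes. Genes with an adjusted p under 0.05 count as called. On the first principal component of the 12 libraries (24.7% of the variance) the MitoCDNB libraries lay between 19.1 and 20.7 and the vehicle libraries between -23.7 and -15.0. The second component (13.7%) had vehicle replicates 1 to 3 at 2.98 to 29.2 and vehicle replicates 4 to 6 at -20.3 to -8.72. Summed brain markers were 18.3 to 21.7 CPM in replicates 1 to 3 and 22.8 to 28.7 CPM in replicates 4 to 6 of both treatments. Cnp and Syt1 made up most of these sums, at 7.94 to 12.5 and 4.17 to 9.70 CPM. Snap25 was at 0 in every library of replicates 1 to 3 and at 0.446 to 1.15 CPM in replicates 4 to 6. Camk2a was at 0 to 0.203 and at 0.965 to 1.72 CPM. Values within each set of replicates are therefore given beside some of the counts below. The 20 genes with Mup symbols, which code for pheromone carriers of the urine, held a share of 11.1% in MitoCDNB replicate 6 and of 22.5 to 36.3% in the other 11 libraries. The 10 hepatocyte markers summed to 60860 to 72310 CPM, and Alb, the gene of albumin, ran from 28910 to 38720 CPM.

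At 1 h, 909 of 13833 genes were called (6.57%), of which 373 were higher with MitoCDNB (2.70%) and 536 were lower (3.87%). The median log2 fold change was 0.81 among the higher genes and -0.51 among the lower ones, against 0.00 over all genes tested. At least a doubling or halving was seen in 206 genes (1.49%), 146 of them higher and 60 lower. In 655 genes (4.74%) the 6 MitoCDNB libraries did not overlap the 6 vehicle libraries, 303 higher (2.19%) and 352 lower (2.54%). Of the called genes, 233 higher and 300 lower ones were among these. A fit within replicates 1 to 3 called 369 genes (174 higher, 195 lower), and one within replicates 4 to 6 called 495 (308 higher, 187 lower), so the direction with more calls turned in that set. All 369 higher genes tested in both sets were higher in each set, and 518 of 519 lower genes were lower in each set, the exception being Cxcl1. Both sets entered the call, so these counts describe the called genes and are no independent check.

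**Figure D1:**
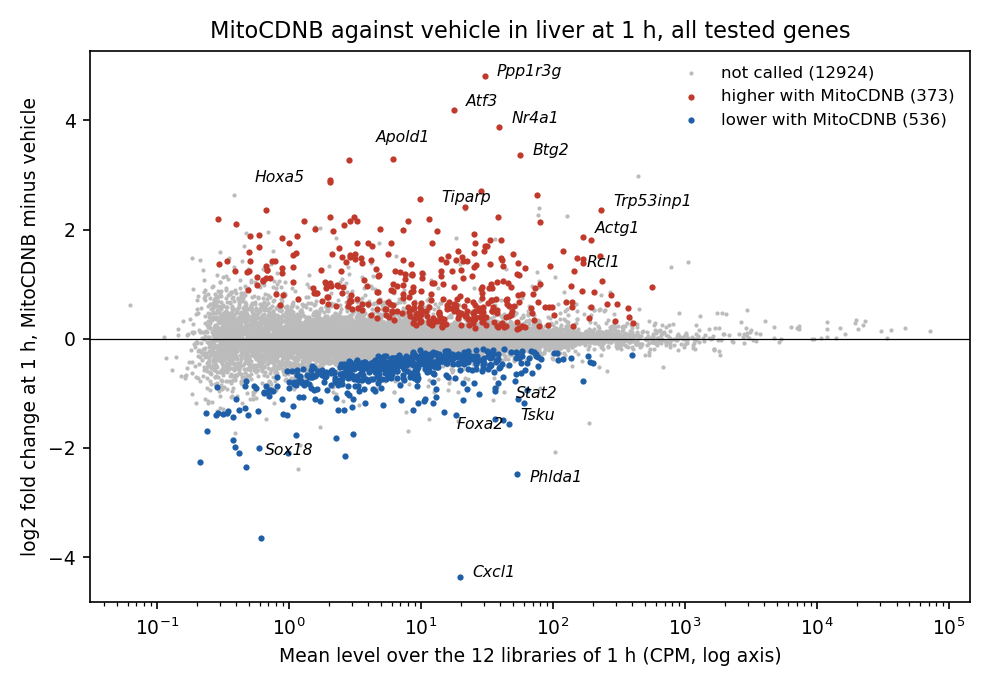
Log2 fold change at 1 h (y axis, MitoCDNB minus vehicle) against the mean level over the 12 libraries (x axis, CPM, log scale), with 1 point per tested gene. The 373 higher genes (red) reach a log2 of 4.82 (Ppp1r3g), and the 536 lower genes (blue) mostly lie between 0 and -2, with Cxcl1 at -4.37.

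Promoter sequence is shown for 7 genes picked from the higher ones because they hold the same element, so their shared direction is no result. Cyclic AMP and calcium signals act on many promoters through the cyclic AMP response element (CRE), bound by CREB and ATF factors, whose full form is the palindrome TGACGTCA. In the RefSeq windows from 250 bases before to 50 bases after a gene's start (GRCm38.p6), searched on both strands, 28 of 292 higher genes with a window (9.59%) held it, 12 of 430 lower genes (2.79%) and 368 of 10820 tested genes (3.40%). Other elements were searched too, and the CRE was picked among them once the shares were known. The antioxidant response element was in 26.4% of higher and 16.8% of tested genes, the AP-1 site in 10.3% and 6.54%, and the ETS site in 14.7% and 19.0%. Windows were found for 78.3% of the higher genes, under the 80% set for a comparison between groups, so that comparison is void and the shares describe these windows alone. The sequences below are given 5′ to 3′ in the direction of transcription and carry the palindrome in capitals. They end at or before the RefSeq start of their window, from which the distances are counted. A gene can have several such starts, and not every window of Maff held the palindrome. The stretches of Dusp1, Dusp8, Maff and Slc25a25 lie inside the span of the gene in the GENCODE M21 annotation. Epha2 and Arnt hold it as well and are not printed, and no match was found in the windows of Ppp1r3g, Atf3, Nr4a1, Nr4a2, Nr4a3, Ddit4, Tiparp or Gadd45a, which are among the genes described below. The stretches of Dusp8 overlap. Dusp8 and the calcium-regulated mitochondrial carrier gene Slc25a25 were picked once their values were known (log2 1.76 and 1.52 at 1 h). A match describes the sequence and shows no binding.
Btg2, chr1:134079284-134079351, minus strand, palindrome 166 bases before the start: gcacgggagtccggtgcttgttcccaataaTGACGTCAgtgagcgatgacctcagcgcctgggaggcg
Dusp1, chr17:26508578-26508645, minus strand, 143 bases before: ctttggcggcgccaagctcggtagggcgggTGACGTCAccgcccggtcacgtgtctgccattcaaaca
Dusp8, chr7:142095354-142095421, minus strand, 107 bases before: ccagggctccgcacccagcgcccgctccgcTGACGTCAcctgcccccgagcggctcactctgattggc
Dusp8, chr7:142095310-142095377, minus strand, 63 bases before: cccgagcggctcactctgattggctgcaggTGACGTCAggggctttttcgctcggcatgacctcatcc
Maff, chr15:79347461-79347519, plus strand, 29 bases before: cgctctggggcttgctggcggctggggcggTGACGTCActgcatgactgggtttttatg
Pnpla3, chr15:84167740-84167807, plus strand, 46 bases before: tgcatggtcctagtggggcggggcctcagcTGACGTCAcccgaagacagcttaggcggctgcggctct
Ppp1r15a, chr7:45526269-45526310, minus strand, 12 bases before: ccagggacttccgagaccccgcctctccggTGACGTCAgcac
Slc25a25, chr2:32424179-32424246, minus strand, 150 bases before: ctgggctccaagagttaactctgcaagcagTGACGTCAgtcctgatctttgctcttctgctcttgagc

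Genes of glycogen handling, insulin action and the FOXO factors were examined next. Insulin activates AKT, which phosphorylates FOXO factors and keeps them out of the nucleus, and FOXO targets include cell death and growth arrest genes. Ppp1r3g, which directs protein phosphatase 1 to glycogen and so favours glycogen synthesis, ranged over 0.933, 1.82 and 3.91 CPM (lowest, median and highest library) in vehicle and over 26.7, 59.1 and 85.1 CPM with MitoCDNB. The groups were far apart, and the log2 fold change was 4.82 (SE 0.455, adjusted p = 6.37e-07). It was the 1 member called of the 27 tested glycogen genes, and the liver glycogen synthase gene Gys2 (log2 0.31, adjusted p = 0.213; 0.0395 within replicates 4 to 6), the phosphorylase gene Pygl (-0.01, 0.978) and the targeting subunit Ppp1r3b (0.12, 0.829), picked once their values were known, missed the threshold.

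Foxo3 (chr10:42181841-42276755, minus strand, 4 exons in GENCODE M21) ranged over 12.4, 19.0 and 22.9 CPM in vehicle and 43.8, 63.2 and 82.8 CPM with MitoCDNB (log2 1.81, SE 0.156, adjusted p = 3.96e-08). Every MitoCDNB library lay above every vehicle library, in both sets of replicates. Foxo1 (0.31, adjusted p = 0.204), Insr (0.07, 0.725) and Irs1 (-0.21, 0.681), also picked once their values were known, missed the threshold, though Foxo1 had an adjusted p of 0.0368 in the libraries of 1 h alone. Of 45 tested genes of the insulin and FOXO list 8 rose and 0 fell, beside 2.70% and 3.87% of all genes, with 15 at an unadjusted p under 0.05 and a median log2 of 0.23. DESeq2 called 10 higher and limma-voom 11, and neither called a lower member. The count was 5 without vehicle replicate 3 or without vehicle replicate 5, and 5 to 9 over all 12 omissions of 1 library.

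Among FOXO targets, Bcl2l11 codes for BIM, a BH3-only protein that promotes apoptosis. It ranged over 2.30, 2.71 and 4.07 CPM in vehicle and 10.6, 12.3 and 17.2 CPM with MitoCDNB (log2 2.16, SE 0.156, adjusted p = 1.95e-09), with no overlap. Trp53inp1, a stress-induced regulator of p53 and autophagy, ranged over 40.9, 72.9 and 125 CPM in vehicle and 322, 373 and 457 CPM with MitoCDNB (log2 2.36, adjusted p = 0.00186). Gadd45a, a growth arrest gene, rose as well (log2 2.01, adjusted p = 4.66e-04). Pnpla3, a lipid droplet hydrolase gene that feeding and insulin induce, rose from a median of 1.07 to one of 5.34 CPM (log2 2.16, adjusted p = 1.08e-04), so the list's called members include genes that insulin is known to repress and one that it is known to induce. The gluconeogenic gene G6pc, picked once its values were known, ranged over 336, 451 and 592 CPM in vehicle and 975, 1150.4 and 1246 CPM with MitoCDNB. Its groups did not overlap, but it missed the threshold (log2 1.32, SE 0.413, adjusted p = 0.0601). In a fit of the 12 libraries of 1 h alone its adjusted p was 1.49e-05. In the 4 h libraries, which share in the estimate of spread, its SD was 182 CPM in vehicle and 177 CPM with MitoCDNB.

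**Figure D2:**
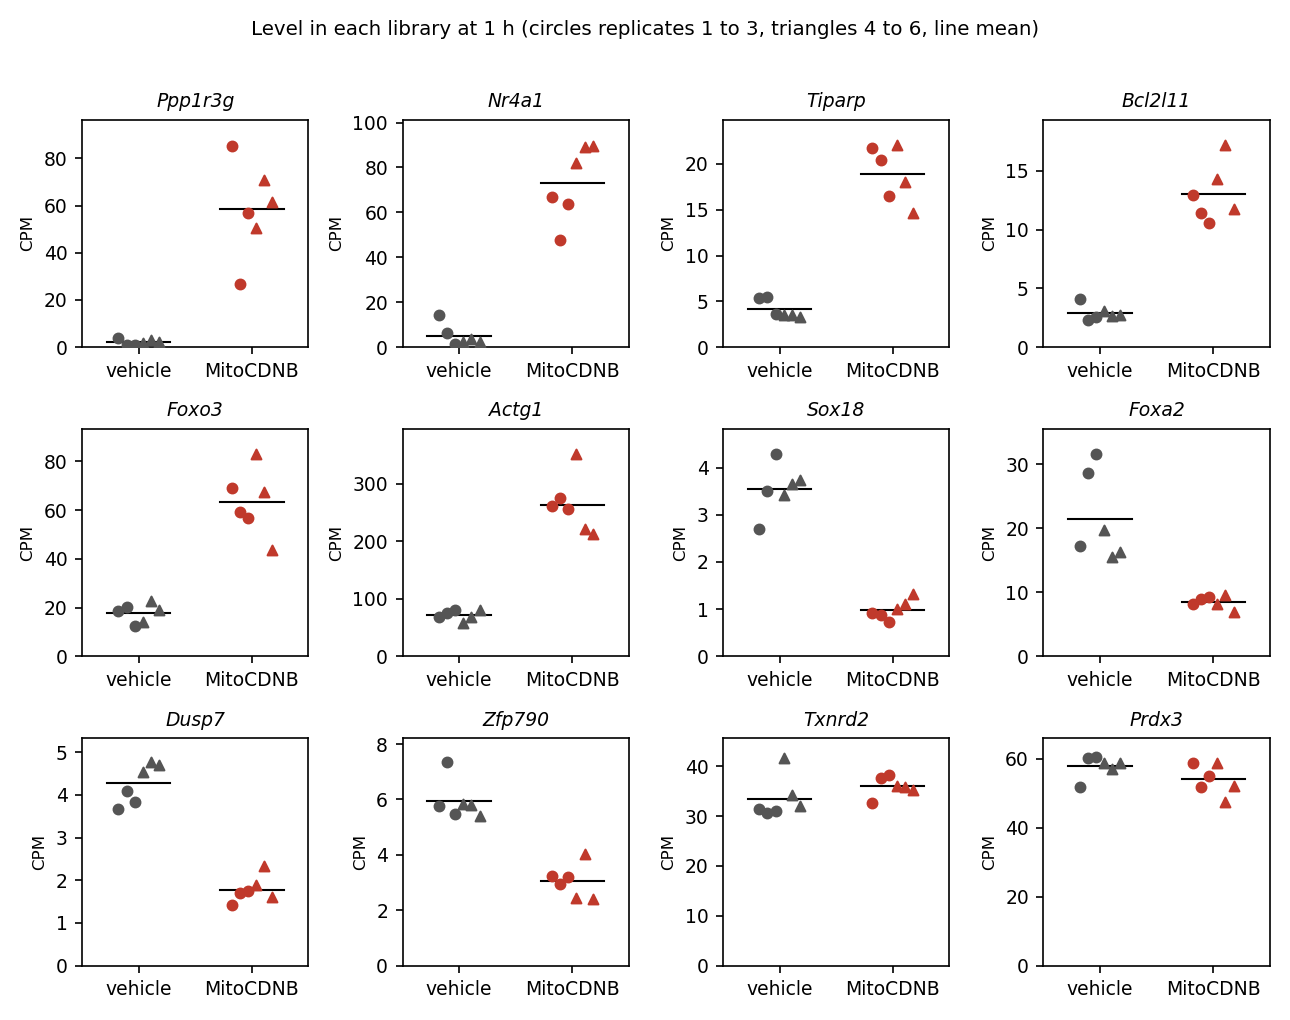
Level of 12 genes in each library at 1 h (y axis, CPM from 0, a scale for each gene), by treatment (x axis), with circles for replicates 1 to 3, triangles for replicates 4 to 6 and a line at the mean of 6. Ppp1r3g, Nr4a1, Tiparp, Bcl2l11, Foxo3 and Actg1 lie higher and Sox18, Foxa2, Dusp7 and Zfp790 lower with MitoCDNB without overlap, while Txnrd2 and Prdx3 overlap.

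Immediate early transcription factors held the most higher members of any list. Of 34 tested, 18 rose and 1 fell, with a median log2 of 1.07. Over the 12 omissions of 1 library 17 to 20 rose. Within replicates 1 to 3 the count of higher members was 4, and within replicates 4 to 6 it was 18. The NR4A orphan nuclear receptors, which act without a known ligand and are induced by cyclic AMP and many stresses, all rose. Nr4a1 ranged over 1.38, 2.95 and 14.3 CPM in vehicle and 47.8, 74.5 and 89.4 CPM with MitoCDNB (log2 3.87, SE 0.625, adjusted p = 4.16e-04). Nr4a2 (log2 2.23, adjusted p = 1.07e-04) and Nr4a3 (2.02, 0.0112) rose from vehicle medians of 0.741 and 0.555 CPM.

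Atf3, a stress-induced factor of the ATF and CREB family, ranged over 0.758, 1.44 and 4.07 CPM in vehicle and 18.9, 32.8 and 52.4 CPM with MitoCDNB (log2 4.19, SE 0.442, adjusted p = 2.35e-06). AP-1 is the dimer of FOS and JUN proteins. Of its 7 tested genes Jund and Fosl2 rose. Jund ranged over 65.0, 87.5 and 120 CPM in vehicle and 197, 252 and 294 CPM with MitoCDNB (log2 1.39, SE 0.156, adjusted p = 2.52e-06). Fosl2 rose from a median of 7.21 to one of 39.4 CPM (log2 1.92, adjusted p = 4.70e-04). The best known members were variable in vehicle. Fos ranged over 0.575, 3.23 and 48.8 CPM in vehicle and 5.73, 6.94 and 8.1995 CPM with MitoCDNB (log2 -0.69, adjusted p = 0.845), and Egr1 over 21.4, 41.7 and 137 and over 26.2, 75.8 and 96.0 CPM (log2 0.09, adjusted p = 0.979). Jun (log2 1.28, adjusted p = 0.227; 0.0240 by limma-voom), Junb (0.09, 0.971) and Myc (0.55, 0.778) did not pass either. These 5 were picked once their values were known.

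Maff, a small MAF protein that pairs with NRF2 or BACH1 on antioxidant response elements, ranged over 3.74, 4.91 and 16.4 CPM in vehicle and 29.9, 32.6 and 48.9 CPM with MitoCDNB (log2 2.42, adjusted p = 1.25e-04). Of 13 Kruppel-like factors, zinc finger proteins of which several respond to shear stress or hormones, 6 rose, with Klf6 (log2 1.21, adjusted p = 3.75e-04), Klf2 (1.14, 0.00249), Klf4 (1.69, 0.00252) and Klf11 (1.19, 0.00334) the 4 with the smallest p. The 1 lower member, Klf1, is erythroid and kept its call in 4 of the 12 omissions (adjusted p = 0.0885 without vehicle replicate 1). Klf2, Klf4, Klf6 and Klf11 were also counted among the higher immediate early factors. Within replicates 1 to 3 the count of higher Kruppel-like factors was 1, and within replicates 4 to 6 it was 5.

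**Figure D3:**
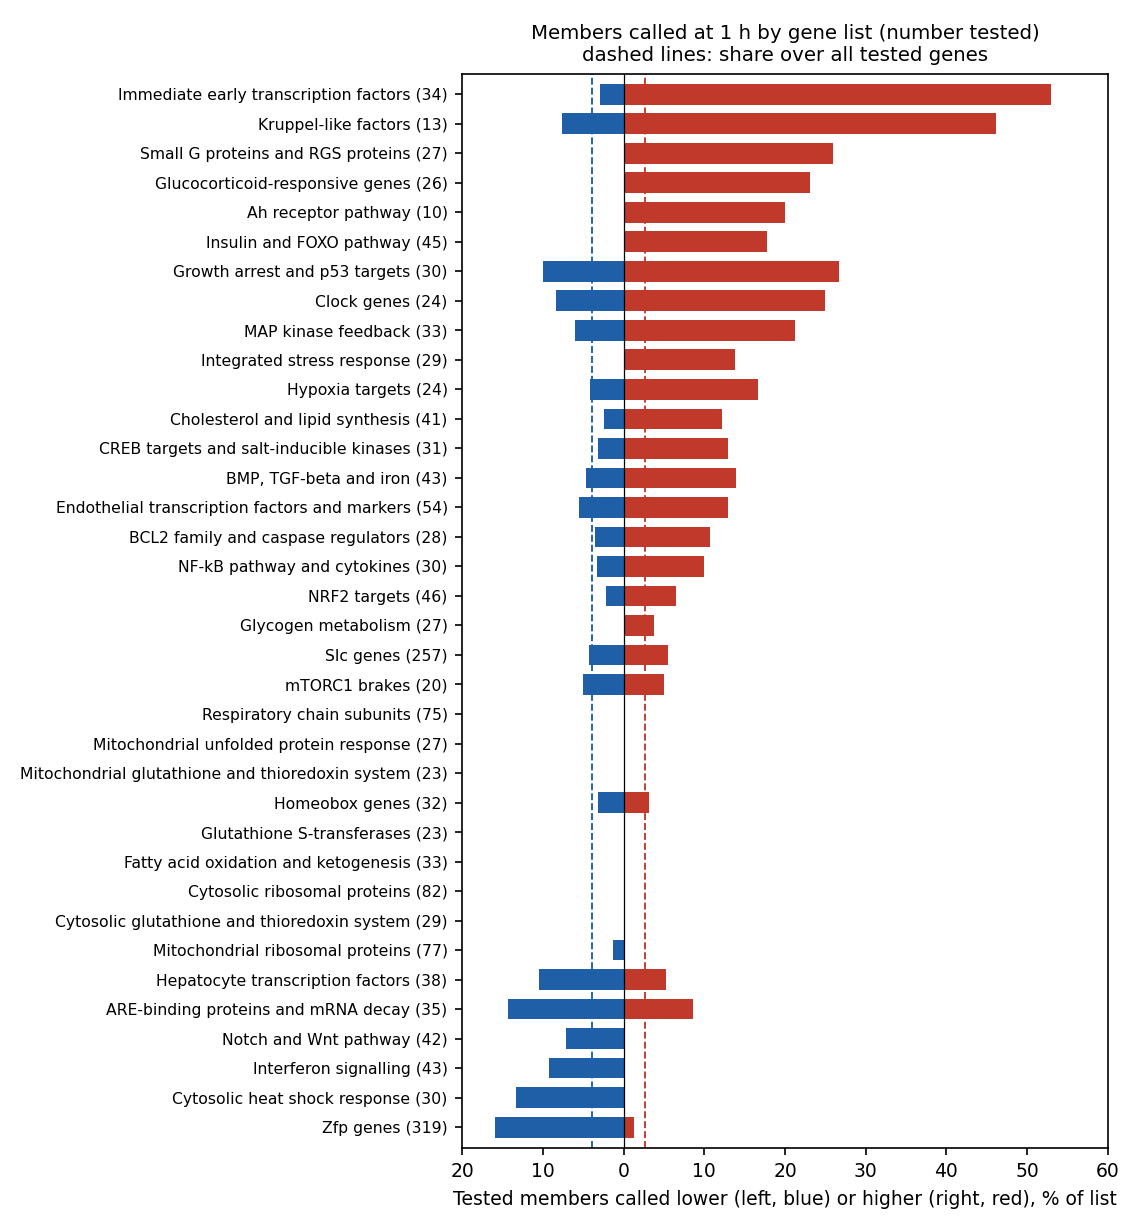
Share of tested members called lower (blue, left) or higher (red, right) at 1 h for each gene list, in % of members tested, with the number tested in parentheses and dashed lines at the shares over all genes, 3.87% and 2.70%. Immediate early and Kruppel-like factors lead on the right, and Zfp genes on the left with 51 of 319 lower. Some lists share members, among them the immediate early and Kruppel-like factors.

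Inhibitors of signalling followed. Dual-specificity phosphatases (DUSPs) remove phosphate from MAP kinases and end their signal, and most are induced by the kinases they act on. Of 15 tested, 7 rose and 1 fell, and of 33 genes of MAP kinase feedback 7 rose and 2 fell. Dusp4, a nuclear phosphatase, ranged over 1.48, 2.26 and 5.75 CPM in vehicle and 10.6, 17.6 and 24.9 CPM with MitoCDNB (log2 2.56, SE 0.273, adjusted p = 1.64e-06). Dusp5 (log2 2.91, adjusted p = 1.29e-05), Dusp10 (1.40, 7.39e-05) and Dusp1 (2.14, 0.0119) rose too. Dusp7 went the other way. It ranged over 3.67, 4.32 and 4.77 CPM in vehicle and 1.41, 1.73 and 2.33 CPM with MitoCDNB (log2 -1.26, SE 0.145, adjusted p = 2.52e-06), with no overlap. No Sprouty or Spred gene, the feedback inhibitors of receptor tyrosine kinases, passed edgeR's threshold among 6 tested. Within replicates 1 to 3 and 4 to 6 the list's higher members numbered 3 and 9.

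Of 27 small G protein and RGS genes 7 rose and 0 fell (12 at an unadjusted p under 0.05, and 9 higher and 1 lower by DESeq2, 10 and 1 by limma-voom). Rasd1, a small G protein induced by glucocorticoids, ranged over 0.207, 0.454 and 1.15 CPM in vehicle and 4.39, 5.38 and 5.69 CPM with MitoCDNB (log2 3.27, adjusted p = 7.34e-04). Rgs2, which speeds the switching off of G protein signals, ranged over 2.24, 2.68 and 3.94 CPM and over 6.59, 8.42 and 9.32 CPM (log2 1.55, SE 0.178, adjusted p = 2.35e-06). Rhob (log2 1.06, adjusted p = 4.16e-04) and Arl4a (1.42, 0.0041) rose, and Rgs16 had a log2 of 2.63 (adjusted p = 0.0211; 0.0527 without vehicle replicate 2).

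Of 31 genes of cyclic AMP signalling through CREB, 4 rose and 1 fell, and within replicates 1 to 3 and 4 to 6 the higher members numbered 3 and 9. Sik1, a salt-inducible kinase that CREB induces and that holds back the coactivators of CREB, ranged over 9.43, 10.5 and 29.0 CPM in vehicle and 52.8, 63.5 and 70.4 CPM with MitoCDNB (log2 2.23, SE 0.358, adjusted p = 3.75e-04). Pde4b, which degrades cyclic AMP, rose (log2 1.51, adjusted p = 0.00232), as did Got1, the cytosolic aspartate aminotransferase (0.85, 0.0117). Creb1 itself fell slightly (log2 -0.38, adjusted p = 0.00449). Of 26 glucocorticoid-responsive genes 6 rose and 0 fell (11 at an unadjusted p under 0.05; DESeq2 called 5 higher and 1 lower, limma-voom 12 and 0). They shared Dusp1, Got1 and others with the lists above, and included Sgk1, a serum and glucocorticoid induced kinase, at 10.3, 14.5 and 20.4 CPM in vehicle and 44.6, 46.3 and 57.9 CPM with MitoCDNB (log2 1.70, SE 0.220, adjusted p = 2.76e-05). The glucocorticoid targets Tsc22d3 (log2 0.00, adjusted p = 0.998) and Fkbp5 (-0.17, 0.889), picked once their values were known, missed the threshold. Within replicates 1 to 3 this list had 3 higher members and within replicates 4 to 6 it had 12.

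Of 30 growth arrest genes and p53 targets 8 rose and 3 fell. Of the 8 tested genes of the GADD45, BTG and TOB families, which slow the cell cycle, 6 rose. Btg2, an antiproliferative partner of the CCR4-NOT deadenylase, ranged over 3.38, 7.28 and 21.7 CPM in vehicle and 71.0, 105 and 135 CPM with MitoCDNB (log2 3.37, SE 0.504, adjusted p = 1.86e-04). Gadd45b rose with Gadd45a (log2 2.23, adjusted p = 0.00115). Of 17 p53 targets 2 rose, Trp53inp1 and Ddit4, and 3 fell, including Trp53 itself (log2 -0.37, adjusted p = 0.0120) and Zmat3 (-0.53, 0.00208), while Mdm2 (0.12, 0.564) and the cell cycle inhibitor Cdkn1a (1.84, 0.245) did not pass. In the libraries of 1 h alone Cdkn1a had an adjusted p of 0.0151, and by limma-voom one of 0.00657. These 4 genes were picked once their values were known. Beside Bcl2l11, Bnip3, a mitochondrial mitophagy receptor, rose (log2 0.59, adjusted p = 0.00207), and Cflar, which codes for the caspase 8 inhibitor c-FLIP, fell from a median of 66.8 to one of 44.2 CPM (log2 -0.64, SE 0.0921, adjusted p = 5.97e-05).

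Ddit4, which restrains the growth kinase complex mTORC1, ranged over 4.75, 7.58 and 9.69 CPM in vehicle and 35.7, 51.3 and 55.8 CPM with MitoCDNB (log2 2.70, SE 0.550, adjusted p = 0.00337). It was the 1 higher gene of 20 on the mTORC1 list, and the complex subunit gene Mlst8 was the 1 lower (log2 -0.42, adjusted p = 0.00759). In the integrated stress response, kinases phosphorylate the initiation factor eIF2 and ATF4 then induces amino acid and stress genes. Of 29 tested genes 4 rose and 0 fell (8 at an unadjusted p under 0.05; 5 higher by DESeq2 and 7 by limma-voom; 2 without MitoCDNB replicate 6). Ppp1r15a, the inducible subunit that reverses the phosphorylation, rose from a median of 8.51 to one of 18.6 CPM (log2 1.00, adjusted p = 0.0106). Atf4 (log2 0.13, adjusted p = 0.522), Ddit3 (-0.32, 0.167; 0.00479 without MitoCDNB replicate 2), Asns (-0.20, 0.930) and Chac1 (0.91, 0.306; 0.0294 by limma-voom), picked once their values were known, missed the threshold. Impact, an inhibitor of the eIF2 kinase GCN2, ranged over 5.48, 6.29 and 7.39 CPM in vehicle and 12.4, 13.5 and 16.7 CPM with MitoCDNB (log2 1.12, SE 0.0928, adjusted p = 1.18e-08).

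Of 9 clock repressors 5 rose, of 3 activators 0 were called, and of 24 clock genes 6 rose and 2 fell (1 fell without vehicle replicates 1 or 2 or without MitoCDNB replicates 2, 3 or 5). Bhlhe40, which competes with the clock activators for their sites, ranged over 41.1, 53.1 and 83.9 CPM in vehicle and 159, 175 and 203 CPM with MitoCDNB (log2 1.62, SE 0.240, adjusted p = 1.35e-04). Nfil3, a repressor of D-box genes, rose from a median of 11.7 to one of 39.95 CPM (log2 1.75, adjusted p = 1.10e-04). The opposing nuclear receptors parted, with Rora higher (log2 0.63, adjusted p = 6.10e-04) and Nr1d1, which codes for the repressor REV-ERB alpha, lower (-0.78, 6.17e-04). The core activator Arntl (log2 0.67, adjusted p = 0.350) and the repressor Per2 (-0.13, 0.885), picked once their values were known, missed the threshold.

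The gene with the smallest p was Tmcc3, a membrane protein gene of the endoplasmic reticulum (chr10:94311949-94590956, plus strand). It ranged over 9.57, 11.6 and 12.6 CPM in vehicle and 28.2, 30.1 and 33.7 CPM with MitoCDNB (log2 1.43, SE 0.102, adjusted p = 1.95e-09). Tiparp (chr3:65528410-65555518, plus strand), a poly-ADP-ribose polymerase gene that the aryl hydrocarbon (Ah) receptor induces and whose protein restrains the receptor, ranged over 3.29, 3.59 and 5.42 CPM and over 14.7, 19.3 and 22.1 CPM (log2 2.20, SE 0.172, adjusted p = 8.05e-09). Of 10 Ah receptor genes 2 rose, Tiparp and the partner Arnt (log2 0.41, adjusted p = 4.81e-04), and 0 fell. The classical targets Cyp1a1 (log2 -0.19, adjusted p = 0.801) and Cyp1a2 (-0.14, 0.756), picked once their values were known, missed the threshold. Skil, which codes for SnoN, an inhibitor of TGF-beta signalling, rose from a median of 10.6 to one of 30.2 CPM (log2 1.503, SE 0.120, adjusted p = 8.05e-09). Rell1 (log2 1.57, adjusted p = 1.33e-08) and Apold1, an endothelial early response gene (3.30, 2.62e-08), followed. Actg1, the gene of cytoplasmic gamma actin, ranged over 57.9, 72.5 and 81.0 CPM in vehicle and 213, 258 and 351 CPM with MitoCDNB (log2 1.87, SE 0.149, adjusted p = 1.06e-08).

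The genes of the systems MitoCDNB was made to disable did not pass at 1 h. Over all genes 6.57% were called, and lists of this size would hold few calls, or none, at that share. Of 23 tested genes that handle glutathione and thioredoxin in mitochondria edgeR called 0 (1 at an unadjusted p under 0.05; DESeq2 and limma-voom 0), and their log2 fold changes lay between -0.23 and 0.10. Txnrd2 ranged over 30.6, 31.7 and 41.7 CPM in vehicle and 32.7, 35.9 and 38.3 CPM with MitoCDNB (log2 0.10, SE 0.0713, adjusted p = 0.529). Prdx3 ranged over 51.8, 58.7 and 60.4 CPM and over 47.5, 53.6 and 58.8 CPM (log2 -0.10, SE 0.0695, adjusted p = 0.539). In both genes the groups overlapped. Txn2 had a log2 of -0.05 (adjusted p = 0.788). Of 29 genes of the cytosolic system edgeR called 0 (4 at an unadjusted p under 0.05; 1 higher by DESeq2 and 1 by limma-voom), the smallest p being that of the sestrin gene Sesn3 (log2 0.51, adjusted p = 0.0744; 0.0240 without vehicle replicate 2, 0.0429 without MitoCDNB replicate 2). Gclc, the catalytic subunit of the enzyme that limits glutathione synthesis, had a log2 of 0.34 (SE 0.135, adjusted p = 0.156; 0.0295 with a term for the sets of replicates). Of 23 glutathione S-transferases edgeR called 0 (DESeq2 and limma-voom 0 each, and 0 with an unadjusted p under 0.05).

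NRF2 is the factor that electrophiles free from KEAP1 and that induces antioxidant genes. Of 46 genes of its pathway 3 rose and 1 fell, and the 3 were regulators, Maff, Mafk (log2 0.54, adjusted p = 0.00427) and Bach1 (0.72, 0.0286; 0.0862 without MitoCDNB replicate 4). Among its targets edgeR called 0 of 16 in glutathione use, 0 of 4 in the thioredoxin system, 0 of 7 in NADPH and quinone reduction and 0 of 4 in haem and iron handling. Groups of this size would hold few calls, or none, at the 6.57% called over all genes. Hmox1 (log2 -0.42, adjusted p = 0.439), Nqo1 (-0.05, 0.941), Txnrd1 (-0.03, 0.864), Srxn1 (0.23, 0.190; 0.0271 without vehicle replicate 4) and Gclm (0.00, 0.993) did not pass. The lower member was Osgin1, a growth inhibitor gene, with a log2 of -1.18 (adjusted p = 0.0340, 0.0819 without vehicle replicate 4), and it kept its call in 4 of 12 omissions. Txn2, Gclc and these 5 targets were picked once their values were known. Neither the 75 nuclear genes of the respiratory chain (log2 -0.08 to 0.13), nor the 27 of the mitochondrial unfolded protein response, nor the 33 of fatty acid oxidation and ketogenesis had a member past edgeR's threshold. Members with an unadjusted p under 0.05 numbered 0, 2 and 2, DESeq2 called 0 in each list, and limma-voom called 1 in the last.

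Sox18, a factor of endothelial differentiation (chr2:181669836-181671640, minus strand, 2 exons), ranged over 2.70, 3.58 and 4.28 CPM in vehicle and 0.731, 0.961 and 1.32 CPM with MitoCDNB (log2 -1.83, SE 0.146, adjusted p = 8.05e-09). It had the smallest p of the lower genes, and its groups did not overlap. In whole liver, fewer cells of a type and less RNA per cell cannot be told apart. The 10 endothelial markers summed to 202 to 259 CPM in vehicle and 239 to 286 CPM with MitoCDNB, with Lyve1 called higher (adjusted p = 0.0494; 0.143 without MitoCDNB replicate 6), none lower and none at 0. Of 54 genes of the endothelial list 7 rose and 3 fell, and 1 fell without vehicle replicate 2 or without MitoCDNB replicate 5. The higher ones included Apold1, Ets2, an ETS factor (log2 0.96, adjusted p = 2.61e-06), and Klf2 and Klf4, which blood flow induces.

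Of 38 hepatocyte transcription factors 2 rose and 4 fell, and 2 fell without vehicle replicate 3 or without MitoCDNB replicates 1, 5 or 6. Foxa2, a pioneer factor that opens chromatin at liver genes (chr2:148042877-148046969, minus strand), ranged over 15.4, 18.5 and 31.6 CPM in vehicle and 6.99, 8.51 and 9.62 CPM with MitoCDNB (log2 -1.34, SE 0.296, adjusted p = 0.00597). Its groups did not overlap in either set of replicates. Foxa1 ranged over 11.1, 15.7 and 32.9 CPM and over 5.76, 8.001 and 12.6 CPM, and the groups overlapped (log2 -1.07, adjusted p = 0.0383). Hhex, a homeobox factor of hepatocytes and endothelium, ranged over 35.8, 59.0 and 129 CPM and over 11.1, 22.4 and 41.9 CPM (log2 -1.57, adjusted p = 0.0293). Foxa1 kept its call in 4 of 12 omissions and Hhex in 7. Without vehicle replicate 2 they had adjusted p of 0.126 and 0.0886, the highest values over the omissions. Hnf4a (log2 -0.07, adjusted p = 0.887) and Cebpa (0.15, 0.713), picked once their values were known, missed the threshold. The 2 higher members were the nuclear receptor Ppard (log2 0.66, adjusted p = 0.00129) and the RNA-binding Zfp36l1 (0.96, 0.0136). Of 32 homeobox genes Hoxa5 rose, from 0.333, 0.379 and 0.901 CPM in vehicle to 2.94, 3.70 and 4.05 CPM (log2 2.86, SE 0.258, adjusted p = 4.40e-08), and Hhex fell.

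Of 42 Notch and Wnt genes 0 rose and 3 fell, so 7.14% were called beside 6.57% of all genes. At an unadjusted p under 0.05 there were 7, and DESeq2 and limma-voom called 0 higher and 4 lower each. Axin2, a feedback inhibitor that Wnt signals induce around the central vein, ranged over 1.76, 4.02 and 4.47 CPM in vehicle and 1.14, 1.32 and 2.21 CPM with MitoCDNB (log2 -1.31, SE 0.218, adjusted p = 3.11e-04), and the groups overlapped. Jag1, a Notch ligand, ranged over 3.81, 4.11 and 4.72 CPM and over 1.31, 2.12 and 2.27 CPM with no overlap (log2 -1.10, SE 0.184, adjusted p = 3.37e-04). The Wnt receptor gene Fzd7 fell (log2 -0.87, adjusted p = 0.00654). Of 43 genes of BMP and TGF-beta signalling and iron control 6 rose and 2 fell. Beside Skil, Id2, an inhibitor of differentiation that BMP signals induce, rose (log2 0.94, adjusted p = 2.80e-04), and Tsku, a secreted hepatocyte inhibitor of BMP and Wnt ligands, fell from a median of 54.9 to one of 16.4 CPM (log2 -1.48, SE 0.260, adjusted p = 7.94e-04).

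Heat shock genes had no called rise. At the shares over all genes, 2.70% higher and 3.87% lower, a list of 30 or 43 genes would hold few rises, or none. Of 30 tested 0 rose and 4 fell (8 at an unadjusted p under 0.05; DESeq2 called 5 lower and limma-voom 4, none higher), with a median log2 of -0.16. The lower count was 2 to 5 over the omissions, and lowest without vehicle replicates 1 or 2 or without MitoCDNB replicates 5 or 6. Chordc1, a co-chaperone of HSP90, fell from a median of 24.8 to one of 15.5 CPM (log2 -0.82, adjusted p = 2.88e-04), and Bag3, which couples HSP70 to autophagy, from 31.5 to 18.1 CPM (-0.82, 0.00207). Hspa1a (log2 -0.97, adjusted p = 0.616) and Hspa1b (-0.90, 0.577), the inducible HSP70 genes, picked once their values were known, missed the threshold. In interferon signalling 0 of 43 rose and 4 fell (5 at an unadjusted p under 0.05; DESeq2 and limma-voom 0 higher and 4 lower each), and the lower count was 2 to 4 over the omissions, with 2 without vehicle replicates 1 or 6 or without MitoCDNB replicates 2, 3, 4 or 5. Stat2, which with IRF9 carries the type I signal, ranged over 48.9, 50.5 and 58.3 CPM in vehicle and 29.8, 31.1 and 38.4 CPM with MitoCDNB (log2 -0.71, SE 0.0907, adjusted p = 1.23e-05), and Irf9 fell with it (-0.33, 0.00788). The interferon target genes had 1 lower of 28.

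Of 30 genes of the NF-kB pathway 3 rose and 1 fell. Il1a, a proinflammatory cytokine gene, rose from a median of 3.85 to one of 9.12 CPM (log2 1.25, adjusted p = 0.0105). Cxcl1, a chemokine that draws neutrophils, had the largest fall of the named genes. It ranged over 1.28, 3.31 and 182 CPM in vehicle and 1.17, 1.67 and 2.85 CPM with MitoCDNB (log2 -4.37, adjusted p = 0.0384). Vehicle replicates 1 and 2 were the high libraries, at 182 and 34.9 CPM. Without replicate 1 the log2 was -2.29 (adjusted p = 0.253), within replicates 4 to 6 it was 0.12, and the call was kept in 4 of 12 omissions. Phlda1, an early response gene, stood at 26.0, 63.9 and 220 CPM in vehicle and 7.55, 10.6 and 44.9 CPM with MitoCDNB (log2 -2.48, adjusted p = 0.0197; 0.0645 without vehicle replicate 2). The 9 neutrophil markers in the table summed to 5.27 to 9.75 CPM in vehicle and 11.3 to 16.5 CPM with MitoCDNB, and of the 6 tested edgeR called 0. The 10 Kupffer cell markers summed to 263 to 361 CPM in vehicle and 287 to 356 CPM with MitoCDNB, and edgeR called 0. The myeloid receptor genes Cd14 (log2 1.99, adjusted p = 8.12e-04), Ccrl2 (2.16, 3.95e-07) and Plaur (1.88, 7.39e-05) rose. The part of cell numbers in these was not tested. Cholangiocyte markers summed to 28.2 to 37.5 CPM in vehicle and 32.3 to 67.0 CPM with MitoCDNB, and 1 of 8 tested was higher (Spp1, log2 0.68, adjusted p = 0.0477). Spp1 made up most of these sums, at 14.9 to 23.0 CPM in vehicle and 18.1 to 45.8 CPM with MitoCDNB. Krt19 stood at 11.4 CPM in MitoCDNB replicate 1 and at 0.275 to 1.49 CPM in the other libraries. Gallbladder and gut epithelium markers summed to 1.42 to 2.36 CPM in vehicle and 1.89 to 14.0 CPM with MitoCDNB (median 2.61 CPM). The cause was not tested.

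In lipid metabolism, Insig1, which retains the SREBP activators in the endoplasmic reticulum, rose from a median of 203 to one of 312 CPM (log2 0.64, SE 0.135, adjusted p = 0.00327). Its call held in all 12 omissions. It was among 5 higher and 1 lower of 41 genes of the cholesterol and lipid list, and the higher count was 2 without vehicle replicates 2 or 3 or without MitoCDNB replicate 1. Of 24 hypoxia genes, 7 of them factors and 17 targets, 4 rose and 1 fell. Of the 4, 2 were factors, Arnt among them, and 2 were targets, Bnip3 among them. The higher count was 2 without vehicle replicates 1, 2, 3 or 6 or without MitoCDNB replicates 4, 5 or 6. The 1 lower was P4ha1, a collagen prolyl hydroxylase gene that hypoxia is known to raise (log2 -1.18, adjusted p = 0.00343).

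Of 319 tested genes with Zfp symbols 51 were lower (16.0%, against 3.87% of all genes) and 4 higher, and 75.2% had a log2 below 0, against 49.3% of all genes. The median log2 was -0.20. Zfp790 ranged over 5.41, 5.78 and 7.36 CPM in vehicle and 2.41, 3.07 and 4.03 CPM with MitoCDNB (log2 -0.96, SE 0.124, adjusted p = 1.29e-05), Zfp646 over 10.03, 11.1 and 11.7 and over 5.50, 6.73 and 8.19 CPM (-0.72, SE 0.0962, 2.09e-05). Neither pair of groups overlapped. Over the omissions 38 to 51 Zfp genes were lower, and within each set of 3 against 3 the numbers were 14 and 15. Many Zfp genes code for KRAB zinc finger repressors that share long stretches of sequence, and how reads matching several of them were counted is not stated in the sources used here. The Zfp genes lay on many chromosomes, 18 of 76 on chromosome 7 being lower. Other symbol classes, chosen after their values were seen, differed in their share of lower genes. Of 40 Zbtb genes 8 were lower and 4 higher, and of 17 Zscan and Zkscan genes 4 and 1. Of 25 Hist genes 4 were lower and 1 higher, and Rbm genes are given further below. Of 10 Srsf genes 2 were lower and 2 higher. Of 42 Slc25a genes 2 were lower (4.76%) and 4 higher, and of 158 Mir genes 5 (3.16%) and 3. The Slc25a and Mir shares were near the 3.87% lower of all genes. The part of shared reads in these counts was not tested.

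Med22, a Mediator subunit, ranged over 17.0, 18.8 and 20.3 CPM in vehicle and 11.4, 12.1 and 12.3 CPM with MitoCDNB (log2 -0.66, SE 0.0706, adjusted p = 9.35e-07). Mepce, which caps and holds the 7SK RNA that restrains elongation, fell (log2 -0.73, adjusted p = 3.70e-06), as did Pnn, a splicing factor (-0.60, 2.35e-06). Cnot3, a subunit of the CCR4-NOT deadenylase, ranged over 17.3, 20.2 and 21.7 CPM and over 10.7, 12.2 and 13.8 CPM (log2 -0.70, SE 0.0845, adjusted p = 4.53e-06). Of 35 genes of mRNA decay 3 rose and 5 fell; of the 3, Zfp36l1 kept its call in all 12 omissions, and the higher count was 1 without vehicle replicates 3, 4 or 6 or without MitoCDNB replicates 1, 2, 4 or 6. Slc39a2, a zinc importer, had the second smallest p of the lower genes, at 1.06, 1.61 and 2.03 CPM in vehicle and 0.290, 0.330 and 0.530 CPM with MitoCDNB (log2 -2.09, SE 0.224, adjusted p = 9.33e-07). Of 257 Slc genes 14 rose and 11 fell. None of 82 cytosolic ribosomal protein genes was called by edgeR, beside 6.57% of all genes. The smallest edgeR p among them was that of Rpl29 (log2 0.12, adjusted p = 0.261). Of 77 mitochondrial ribosomal protein genes Mrpl49 was called (log2 -0.27, adjusted p = 0.0191, 0.0555 without MitoCDNB replicate 6).

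**Figure D4:**
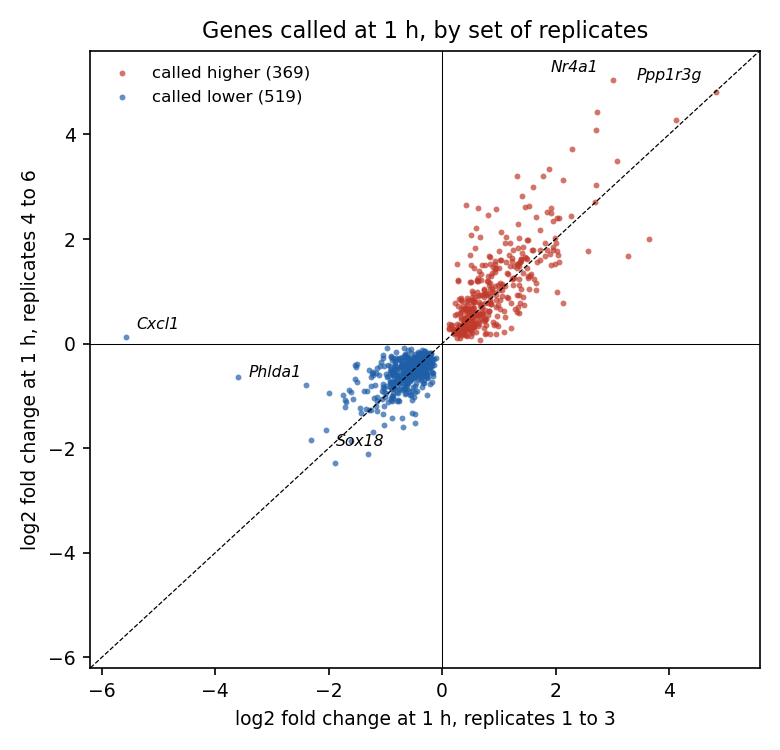
Log2 fold change at 1 h within replicates 1 to 3 (x axis) and within replicates 4 to 6 (y axis) for the called genes tested in both sets, 369 higher (red) and 519 lower (blue), with a dashed line at equality. The points lie in the upper right and lower left fields except Cxcl1, at -5.58 and 0.12, and Phlda1 stands apart at -3.60 and -0.65.

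At 4 h, in other mice, 114 genes were called (0.824%). The median log2 of the 373 higher genes was 0.81 at 1 h and 0.01 at 4 h, and that of the 536 lower genes -0.51 and 0.03. The difference between the effects was called in 563 genes (4.07% of all), among them 160 of the higher genes, of which 158 had the smaller effect at 4 h, and 249 of the lower ones, of which 245 did. Since these genes were taken for their effect at 1 h, that choice favours a smaller effect at 4 h. Neither these counts nor the step in the medians from 1 h to 4 h therefore measures a loss. The effects at 4 h had no part in the choice. At 4 h 193 of the 373 higher and 229 of the 536 lower genes kept the sign they had at 1 h. Foxo3 had a log2 of 1.81 at 1 h and 0.20 at 4 h (adjusted p of the difference 7.91e-05), Actg1 1.87 and -0.01 (4.79e-06), Tiparp 2.20 and -0.10 (2.66e-06) and Sox18 -1.83 and 0.24 (1.79e-06). Ppp1r3g had 4.82 and 1.60 (0.0301).

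Of the genes called at 1 h, 15 were called at 4 h as well. Of these 8 were higher and 2 lower at both times, among them Got1 (log2 0.85 and 1.10), Agt, the gene of angiotensinogen (0.41 and 0.47), Etnppl, a phosphoethanolamine lyase gene (0.88 and 1.07), and Hfe2, the gene of the BMP coreceptor hemojuvelin (0.46 and 0.52). The other 5 changed direction. Since both effects passed in these 5 with opposite signs, a called difference between them, found in each, was nearly fixed by that choice. Il1a had a log2 of 1.25 at 1 h and -1.37 at 4 h, Nr1d1 -0.78 and 0.69, Cbx2, a Polycomb subunit gene, -0.96 and 0.75, Fam109a -0.54 and 0.57, and the DNA repair nuclease gene Apex2 -0.43 and 0.53. Apex2 kept its call at 1 h in 4 of 12 omissions (adjusted p = 0.111 without vehicle replicate 2) and Fam109a in 11 (0.0503 without MitoCDNB replicate 4). Agt, Etnppl, Hfe2, Cbx2, Fam109a and Apex2 were picked once their values were known.

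**Figure D5:**
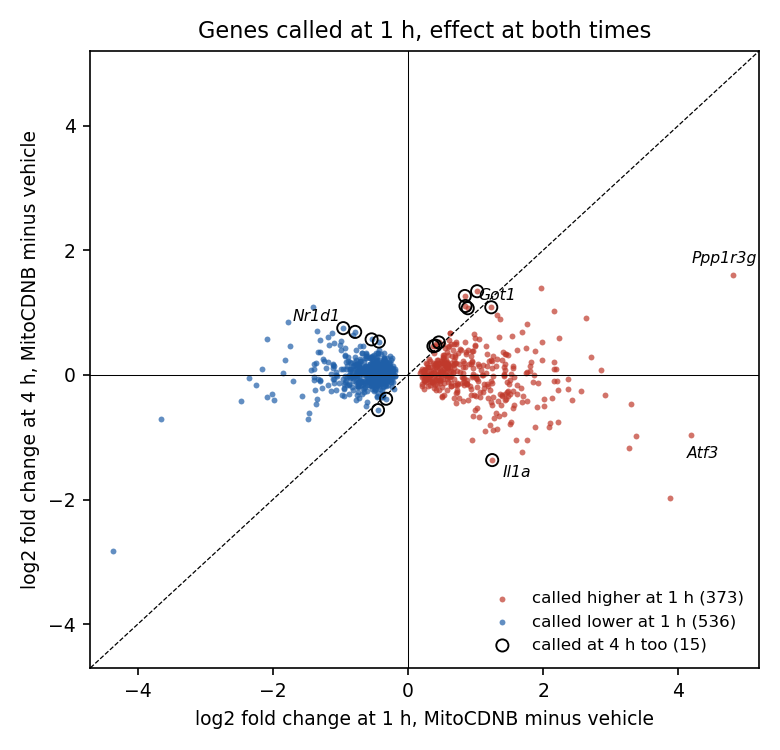
Log2 fold change of the genes called at 1 h, at 1 h (x axis) and at 4 h (y axis), higher (red, 373) and lower (blue, 536), with black rings on the 15 genes called at 4 h too and a dashed line at equality. Most points lie near 0 on the y axis, and Il1a and Nr1d1 are among the 5 ringed genes on opposite sides of 0 at the 2 times.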

How the data were processed

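The authors deposited raw counts by gene symbol for 24 libraries. CASAVA 1.8.4, Trim Galore, HISAT2 and DESeq2 with the genome build mm10 are named per the submitters' processing notes, while the counting tool, annotation and strand setting are not stated in the sources used here. The kit's name does not mark strand, so overlapping and antisense genes cannot be told apart. The replicates are separate mice per the labels.

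Of 24421 genes, 4653 had no count and 13833 passed edgeR's filter (count minimum 10, total minimum 15), which removed 0.0306% of the counts. Library sizes were scaled by TMM, and edgeR 4.0.16 (R 4.3.3) fitted a robust quasi-likelihood model to the 4 groups of 24 libraries, which share one estimate of spread, with contrasts for 1 h, 4 h and their difference and Benjamini-Hochberg adjustment at 0.05. Alternatives used DESeq2 1.42.0, limma 3.58.1 (voom), other filters, the libraries of 1 h alone, the sets of replicates and the omission of each library. On data simulated for the comparison at 1 h over 13723 genes, the fit recovered 59.7% of the changes of 1.5-fold, 79.1% at 2-fold and 98.5% at 4-fold, with 6 false calls.

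The members and lists were chosen with earlier results of these data known. Genes were named by rule: the 30 largest called changes in each direction whose mean reached 1 CPM, predicted genes skipped, the 10 smallest p values in each direction, up to 4 called members of each of 32 lists (or the member with the smallest p) and up to 3 of each symbol class. Any other gene is said to have been picked once its values were known. Gene positions come from GENCODE M21 and promoter windows from RefSeq (GRCm38.p6). Libraries of 1 group differed beyond counting noise (chi-square per degree of freedom 19 to 538 over 30 pairs).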

Additional observations from a re-analysis of the deposited data

Results flagged for a closer look

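In the genes named here 300 groups of 6 libraries were searched for a library far from the other 5 on the log2 scale (Dixon's ratio above 0.625), and 20 had one. Chance flags about 1 in 20 groups. Among vehicle libraries, the highest was replicate 1 for Mepce (28.4 CPM) and Sik1 (29.0 CPM), replicate 2 for Zfp790 (7.36 CPM), and replicate 4 for Irf9 (25.2 CPM) and Txnrd2 (41.7 CPM). The lowest vehicle library stood apart for Axin2 (replicate 2, 1.76 CPM), Txn2 (replicate 2, 72.1 CPM) and Cyp1a2 (replicate 3, 229 CPM).

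Among MitoCDNB libraries, the highest was replicate 1 for Plaur (2.86 CPM) and Pnn (33.3 CPM), replicate 2 for Ddit3 (10.4 CPM) and Stat2 (38.4 CPM), replicate 4 for Bach1 (91.3 CPM), and replicate 6 for Apold1 (16.0 CPM) and Ppp1r15a (25.2 CPM). The lowest stood apart for Cdkn1a (replicate 1, 15.6 CPM), Pnpla3 (replicate 4, 2.08 CPM), Ddit4 (replicate 5, 35.7 CPM), and Cyp1a1 and Pygl (replicate 6, 0.969 and 317 CPM).

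The MitoCDNB effect differed between the times in the 10 genes for which the report gives a test of the difference or a change of sign. These genes were named for their effect at 1 h or for a called change of sign. For those with a change of sign a called difference was nearly fixed by that choice. An effect at 1 h favours one without fixing it, since 160 of 373 higher and 249 of 536 lower genes had a called difference. On the log2 scale, the effect at 4 h minus that at 1 h was -3.22 for Ppp1r3g, -1.61 for Foxo3, -1.87 for Actg1, -2.30 for Tiparp, 2.06 for Sox18, -2.61 for Il1a, 1.47 for Nr1d1, 1.71 for Cbx2, 1.11 for Fam109a and 0.97 for Apex2.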

How the results depend on the processing

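Of 909 genes called at 1 h (373 higher, 536 lower), the limma-voom fit raised the higher count to 578 and the count of called differences between the times from 563 to 913. Within replicates 1 to 3 the fit called 369 (174 higher, 195 lower), and within replicates 4 to 6 it called 495, 187 of them lower, where the higher share of calls moved from 41.0% to 62.2%; both sets have fewer samples. At an adjusted p under 0.01 the counts were 473, 205 and 268, and with at least a 2-fold change 206, 146 and 60. Leaving out 1 library of 1 h gave 720 to 838 calls, 288 to 332 higher and 423 to 506 lower, and leaving out any of the 24 gave 439 to 696 called differences between the times. Cxcl1 turned to 0.12 within replicates 4 to 6, and the cause was not tested. Of the higher genes 228, and of the lower genes 329, were called in all 12 omissions. With the replicate number as a block the libraries of 1 h gave 984 calls, against 1072 without it; same-numbered libraries share only a number (correlations of their deviations -0.067 to 0.212, 5 of 12 libraries closest to their own number). At this depth and spread, changes near 1.5-fold were often missed in simulated data.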

Other observations

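Genes outside the lists above, all chosen after their values were seen, also differed without overlap of the groups. H3f3b, which codes for the replication-independent histone H3.3, ranged over 79.3, 86.8 and 90.3 CPM in vehicle and 222, 303 and 418 CPM with MitoCDNB (log2 1.803, edgeR adjusted p = 7.28e-07). Kdm6b, a demethylase of histone H3 lysine 27, rose (log2 0.91, adjusted p = 4.48e-05), as did Rcl1, of ribosomal RNA processing (1.24, 6.08e-07), and Ifrd1, a transcriptional coregulator (1.69, 6.08e-07). Actb, the beta actin gene often used as a reference, rose with Actg1, from 173, 207 and 212 CPM to 272, 339 and 409 CPM (log2 0.81, adjusted p = 7.56e-05), so a level set against Actb would differ between these groups.

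Of 42 genes with Slc25a symbols, the inner membrane carriers of mitochondria, 4 rose and 2 fell. Slc25a25, a calcium-regulated carrier of ATP and magnesium, ranged over 65.5, 87.7 and 224 CPM in vehicle and 286, 316 and 425 CPM with MitoCDNB (log2 1.52, adjusted p = 0.0108). Slc25a33, a pyrimidine nucleotide carrier gene (log2 1.25, adjusted p = 9.23e-04), and Slc25a47 (0.95, 0.0129) rose as well. The ephrin ligand gene Efna1 and its receptor gene Epha2 rose together (log2 1.81 and 1.43, adjusted p = 3.02e-04 and 0.00512). Of 37 genes with Rbm symbols, RNA-binding proteins of which several act in splicing, 0 rose and 8 fell, among them Rbm5 (log2 -0.45, adjusted p = 4.57e-05) and Rbm10 (-0.45, 5.05e-05), and the splicing gene Luc7l3 fell too (-0.60, 3.10e-04).

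In GENCODE M21 the median genomic span was 18.6 kb for the higher genes, 15.01 kb for the lower genes and 22.4 kb for all genes tested. Spans over 50 kb made up 19.3%, 9.69% and 26.4% of them.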
